A study of Oikopleura dioica with 2 samples.

Results

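The 169 components with 20 or more assembled transcripts were examined in the RNA of unfertilized eggs and larvae of Oikopleura dioica, a planktonic tunicate of the group Appendicularia. A component is the row unit of the authors' table, which lists for each one its assembled transcripts and 1 FPKM value per stage (fragments per kilobase per 1000000 mapped fragments, a level corrected for length and library size). The members were chosen by the number of transcripts listed, without reference to their levels, and they made up 0.292% of 57962 components. They held 6683 of the 86898 listed transcripts (7.69%). Eggs came from 46 female cohorts and larvae from cohorts of 63 adult pairs, collected at 8 hours post-fertilization (hpf), all descended over several generations from a single male and female and reared at 20 °C, where adults reach spawning 5 days after fertilization, with no treatment in the labels other than anesthesia of the larvae before freezing. Each stage is thus a pool of animals of 1 closed line. Polyadenylated RNA was sequenced on both stages. The series describes 2 biological replicates, but the table gives 1 value per stage, treated as the authors' mean. No spread between replicates, SD, p-value or test can be had from it, and every difference below is one between a pair of deposited values with no replicate check. The number of reads behind the values is unknown.

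In an unfertilized egg the RNA is maternal, laid down while the egg formed, whereas a larva holds what remains of it together with RNA made from its own genome. An assembly that works from reads groups related sequences, and 1 group can hold splice forms, alleles, members of a gene family or repeats that share sequence. In O. dioica, which has a compact genome, many messenger RNAs are also trans-spliced to a common leader. The table gives no names or sequences for its components, and none (0) of the identifiers of the 169 matched the 17178 genes of the RefSeq table of assembly OKI2018_I68_1.0. What the members encode was therefore not determined, and which of those kinds of sequence make up their lists was not tested. The table gives 1 level for the whole component, not 1 per transcript.

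Components with 20 or more transcripts lay above most components in larvae, though below the most abundant ones, and at very unequal levels in eggs. In larvae all 169 reached 1 FPKM, the limit used here for detection, against 54.6% of all components. So did all 419 components with 10 to 19 transcripts and 98.8% of those with 5 to 9, so this is not particular to the members. Larval levels of the members ran from 3.69 to 357 FPKM, with a median of 38.8 FPKM and quartiles of 26.3 and 68.0 FPKM. The upper quartile in larvae was 8.69 FPKM over all components and 19.1 FPKM over those detected in at least 1 stage. In eggs 17.4% of all components reached 1 FPKM, as did 28.2% of those detected in larvae and 50.1% with 10 to 19 transcripts. Of the 169 members, 92 (54.4%) did. Egg levels ran from 0 to 189 FPKM with a median of 1.585 FPKM and quartiles of 0.0600 and 17.4 FPKM, so relative to the median the members were spread far more widely in eggs than in larvae. In whole eggs and whole larvae, fewer cells that hold an RNA and less of it per cell cannot be told apart. The members together held 0.260% of the summed egg FPKM and 0.779% of the summed larval FPKM. Their summed level was 3015 in eggs and 9893 FPKM in larvae, a ratio of 3.28, while the ratio of the sums over all components was 1.10.

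None of the members (0 of 169) was among the most abundant RNAs of either stage. Only 220 of the 57962 components were at 1000 FPKM or more in eggs or larvae. With so small a share, the absence of the 169 from it is not a result about the members. The component with most transcripts among the 220 listed 17. Of these 220 components, 181 had a single transcript, 37 had 2 to 9 and 2 had 10 to 19. Over all 57962 components the split was similar, with a single transcript in 48629 and 10 to 19 in 419. The highest larval level among the members, 357 FPKM, was the 296th of the table, and the highest egg level, 189 FPKM, was the 601st. At the other end, the table holds 26296 components below 1 FPKM in larvae, again without a member among them. None of them had 10 to 19 transcripts either.

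**Figure D1:**
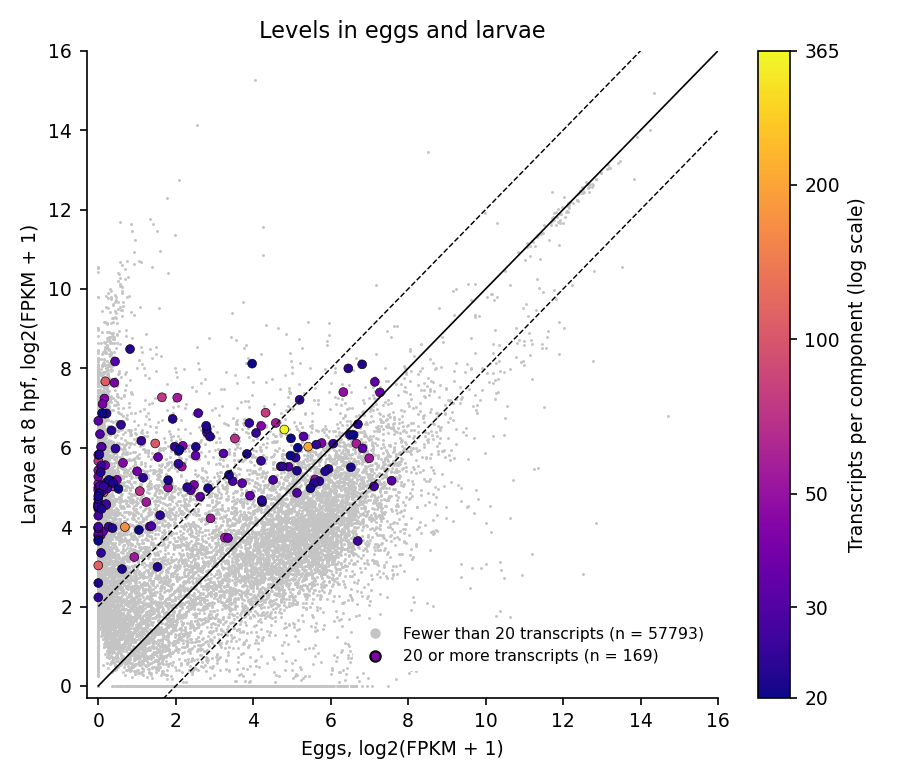
Level in larvae against level in eggs, both as log2(FPKM + 1), for the 169 components with 20 or more transcripts (outlined points, coloured by the number of transcripts on a log scale) and the 57793 with fewer (grey). The solid line marks equal levels and the dashed lines a 4-fold difference. The outlined points form a horizontal band between 3.69 and 357 FPKM in larvae that reaches from 0 to 189 FPKM in eggs.

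Most of the members were higher in larvae. Measured as log2(FPKM + 1), 121 of 169 (71.6%) exceeded their egg level at least 4-fold in larvae, against 28.8% of all components. Only 3 (1.78%) were 4-fold or more higher in eggs, against 4.4% of all components. A further 32 (18.9%) differed by less than 2-fold, as did 50.6% of all components, but only 12.8% of those detected in at least 1 stage. By any amount, 17 of the 169 (10.1%) were lower in larvae. That share was 12.8% over all components and 22.2% over those detected in at least 1 stage. The median difference, larvae minus eggs, was 3.67 with quartiles of 1.47 and 4.81. It was 0 over all components, many of which are listed at 0 in both stages, and 2.03 over the 32857 components detected in at least 1 stage. The direction of the members' median was kept by each scaling tried, but its size was not: dividing larval values by 6.44, which aligns the upper quartiles, gave 1.28, with 60 members (35.5%) above the 4-fold limit toward larvae and 23 (13.6%) toward eggs. Over all components these shares were 8.17% and 11.8% after the same scaling, so the members' share toward eggs was then near the background. The share of the 4-fold differences that favoured larvae was 97.6% for members and 86.7% for all components as deposited, and 72.3% and 41.0% after that scaling.

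All members were detected in larvae, so their count of larva-higher components was also set beside components of like larval level. The first such comparison is with the 31666 components detected there, of which 52.6% passed the 4-fold limit toward larvae. Of the members, 140 lay between 10 and 100 FPKM in larvae, and 98 of these (70.0%) passed that limit. Among all components between these levels the share was 65.4%, close to that of the members. At 100 to 1000 FPKM in larvae the share was 77.3% (17 of 22) for members and 71.5% for all components. At these levels the share of members higher in larvae was thus near the background and is not a result about them. The remaining 7 members lay between 3.69 and 9.205 FPKM in larvae, and 6 of them passed the limit, against 43.4% of all components at 1 to 10 FPKM in larvae. Only 1 of the 7 reached 1 FPKM in eggs. Their larval median was 6.985 FPKM, against 3.555 FPKM for the other components of this class, so the contrast is not one of like level.

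The members were divided into 5 sets by egg level. The first were 28 members listed at 0 in eggs (16.6%). That share was 74.7% over all components and 58.4% over those detected in larvae. With 10 to 19 transcripts it was 17.9%, near that of the members. The larval levels of the 28 members ran from 3.69 to 101 FPKM with a median of 22.0 FPKM. No fold is given for them, because the depth that a value of 0 stands for is unknown. A second set of 49 members lay above 0 but below 1 FPKM in eggs, with a median of 0.135 FPKM, and had a median of 33.8 FPKM in larvae. All 77 members of these sets passed the 4-fold limit toward larvae, and 71 of them were at 10 FPKM or more in larvae. Of all components below 1 FPKM in eggs and detected in larvae 69.7% passed the limit, and at 10 to 100 FPKM in larvae all 7356 did (100%), since an egg value below 1 FPKM and a larval value of 10 FPKM or more fix the call. The calls of the 71 are therefore not a result about the members. Together these sets make up 77 of the 121 members higher in larvae, so that most of that count rests on egg values below 1 FPKM.

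The other 92 members were detected in both stages. The 40 members at 1 to 10 FPKM in eggs had medians of 3.245 in eggs and 43.3 FPKM in larvae, and 35 of them (87.5%) passed the 4-fold limit toward larvae. Among all components at this egg level the share was 20.2%, and 63.3% for those that were also at 10 to 100 FPKM in larvae. With 10 to 19 transcripts these shares were 68.1% and 74.1% (40 of 54). The members' share within that larval range was 88.6% (31 of 35). Levels there were not equal, with larval medians of 38.8 FPKM for these members and 20.7 FPKM for components that are not members. None of the 40 (0) was lower in larvae, against 44.5% of all components at this egg level and 2.90% of those with 10 to 19 transcripts. Of the 40, 35 were at 10 to 100 and 4 at 100 to 1000 FPKM in larvae. An egg level below 10 FPKM excludes a lower level there, so this contrast restates the members' larval level. The 42 members at 10 to 100 FPKM in eggs had medians of 31.8 in eggs and 55.6 FPKM in larvae. Of these 42, 25 differed by less than 2-fold, 9 passed the 4-fold limit toward larvae, and 10 were lower in larvae by any amount. Among all components at this egg level 34.1% differed by less than 2-fold, 1.94% passed the limit toward larvae and 84.9% were lower in larvae. The median larval level at this egg level was 12.9 FPKM for components that are not members. The 10 members at 100 FPKM or more in eggs had medians of 119 in eggs and 65.0 FPKM in larvae, and 7 of the 10 were lower in larvae, against 95.8% of all components at 100 to 1000 FPKM in eggs. Those 7 were at 10 to 100 FPKM in larvae, where such an egg level fixes the direction. The other 3 were at 100 to 1000 FPKM in larvae. The median larval level of the 5 sets ran from 22.0 to 65.0 FPKM. Across the 169 members, Pearson's r between the stages was 0.35 for log2(FPKM + 1), and Spearman's rho was 0.43. These describe components of the same libraries, which are not independent replicates.

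Within the same range of larval levels, the members were less often listed at 0 in eggs than components with 1 transcript, and more often at 1 to 10 FPKM there. Among components at 10 to 100 FPKM in larvae, the share listed at 0 in eggs was 54.5% with 1 transcript, 33.9% with 2, 28.4% with 3 or 4, 24.2% with 5 to 9, 18.1% with 10 to 19 and 17.1% with 20 or more, against 44.6% over all of them. The share at 1 to 10 FPKM in eggs ran the other way, from 4.67% with 1 transcript through 10.4%, 13.3%, 13.9% and 16.9% to 35 of 140 components with 20 or more. The share detected in eggs was 56.4% for the members (79 of 140), 49.1% with 10 to 19 transcripts and 36.2% with 1, against 39.9% of all components at this larval level. In the class of 100 to 1000 FPKM in larvae the share of members detected in eggs was 54.5% (12 of 22), against 42.4% of all components and 59.2% of those with 10 to 19 transcripts. No test of these shares was possible. At 10 to 100 FPKM in larvae the shares at 0 and at 1 to 10 FPKM in eggs followed the number of transcripts over all 6 classes, so the members end an order that the smaller classes also show. Levels within that range were not equal, with a larval median of 35.2 FPKM for the members and 21.6 FPKM with 1 transcript. In narrower ranges, chosen after these values were seen, the share listed at 0 in eggs was 38.1% for the members (8 of 21) and 54.2% with 1 transcript at 10 to 20 FPKM in larvae. It was 20.0% (15 of 75) and 57.6% at 20 to 50 FPKM, and 2.27% (1 of 44) and 44.7% at 50 to 100 FPKM. The share at 1 to 10 FPKM in eggs was 33.3% (7 of 21), 18.7% (14 of 75) and 31.8% (14 of 44) for the members in these ranges, and 5.27%, 3.97% and 4.88% with 1 transcript. The order over all 6 classes did not hold at 10 to 20 FPKM, where 23.75% of the components with 10 to 19 transcripts were listed at 0 in eggs. Whether the number of transcripts follows from how many reads each stage gave to the assembly was not tested.

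**Figure D2:**
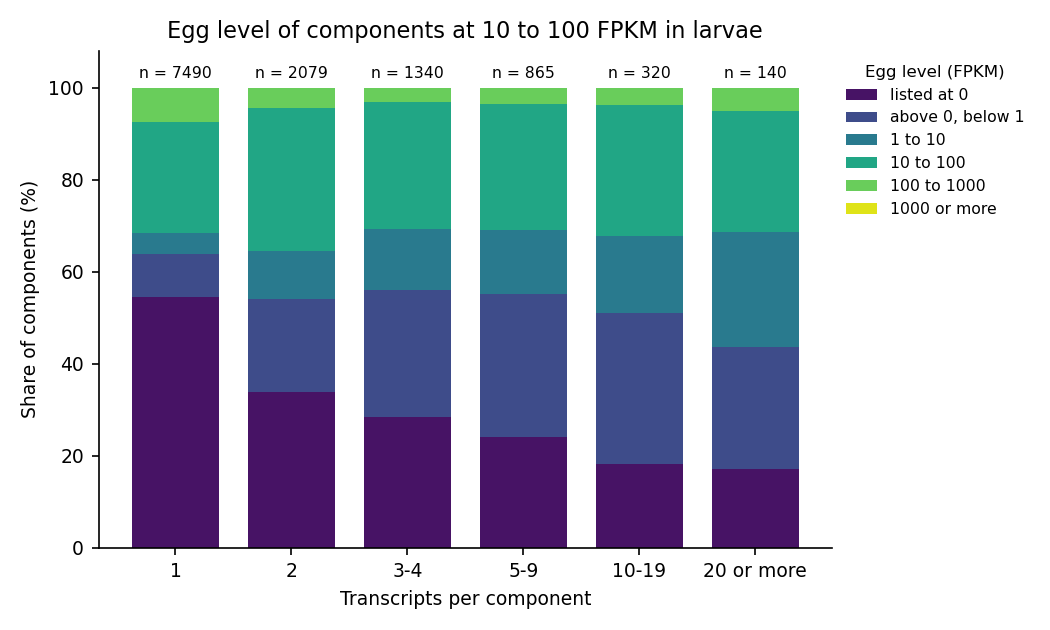
Share of components in each class of egg level (stacked colours, FPKM), for all components at 10 to 100 FPKM in larvae, by number of transcripts per component; n above each bar is the number of components. The share listed at 0 in eggs is 54.5% in the first bar and 17.1% in the last, and the share at 1 to 10 FPKM is 4.67% in the first and 35 of 140 components in the last.

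Among components at 10 to 100 FPKM in both stages, those with many transcripts were at a higher level in larvae. For these components the median difference was -1.02 with 1 transcript, -0.82 with 2, -0.57 with 3 or 4, -0.32 with 5 to 9, -0.02 with 10 to 19 and 0.66 with 20 or more (37 members). The corresponding median larval level was 17.9 FPKM with 1 transcript and 49.9 FPKM with 20 or more, at median egg levels of 45.0 and 30.4 FPKM. Of the components with 1 transcript at these levels 84.1% were lower in larvae, against 27.0% of the members (10 of 37). The sign of the members' median turned under upper-quartile scaling, to -1.89, while the median with 1 transcript became -3.37. The order of the 6 classes was the same after quantile normalization, from -1.77 with 1 transcript to 0.55 for members. The other scalings multiply all values of a stage by 1 factor, which leaves little room for the order to change. In narrower ranges of larval level the difference between the classes was smaller, at 0.40 for the 19 members and -0.73 with 1 transcript between 20 and 50 FPKM, and 0.92 for the 18 members and 0.28 with 1 transcript between 50 and 100 FPKM. The classes between them had no order in the last range, and no member was at 10 to 20 FPKM in larvae and 10 to 100 FPKM in eggs. Nor was there an order at 100 to 1000 FPKM in larvae and 10 to 100 FPKM in eggs, where the median was 2.01 for the 5 members, 2.63 with 10 to 19 transcripts, 1.54 with 5 to 9, 2.90 with 2 and 2.11 with 1. At 1 to 10 FPKM in eggs and 10 to 100 FPKM in larvae the median difference was 3.38 for members and 2.29 with 1 transcript, but at 100 to 1000 FPKM in larvae it was 5.01 for the 4 members and 5.52 with 1 transcript. At 100 to 1000 FPKM in eggs and 10 to 100 FPKM in larvae it was -1.26 for the 7 members and -2.29 with 1 transcript. Above 0 and below 1 FPKM in eggs the medians were 4.85 for members and 4.75 with 1 transcript, with the other classes from 4.32 to 4.69.

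**Figure D3:**
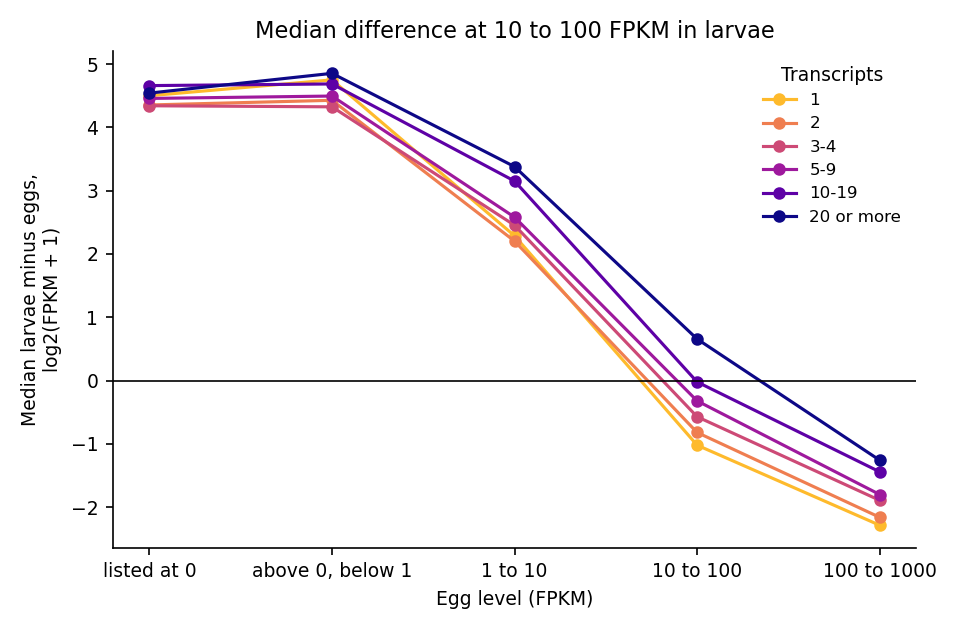
Median difference between larvae and eggs on the log2(FPKM + 1) scale by egg level, for components at 10 to 100 FPKM in larvae; each line is a class of transcripts per component. The lines run from 4.32 to 4.85 above 0 and below 1 FPKM in eggs and lie farther apart at 10 to 100 FPKM, where the median is -1.02 with 1 transcript and 0.66 with 20 or more.

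The members with the largest differences toward larvae were comp25806_c0 and comp27788_c4. The first lists 31 transcripts and was at 0.350 in eggs and 288 FPKM in larvae. Its larval level exceeded its egg level by 7.74 as log2(FPKM + 1), larvae minus eggs. Such differences are given in parentheses from here on. The second lists 22 transcripts and was at 0.765 in eggs and 357 FPKM in larvae (7.67). In larvae it stood above all other members. Both rest on an egg value below 1 FPKM, and their ratios of the deposited values, 822 and 467, are correspondingly uncertain. A further 20 members also reached 100 FPKM in larvae. One with 107 transcripts was at 0.135 in eggs and 203 FPKM in larvae (7.49). Of the 22 members at 100 FPKM or more in larvae, 10 were below 1 FPKM in eggs and 3 were at 100 FPKM or more there too.

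In the opposite direction, comp23382_c0 had the largest difference. It lists 26 transcripts and was at 103 in eggs and 11.6 FPKM in larvae (-3.05). The next, comp24649_c0, lists 32 transcripts and was at 189 FPKM in eggs, the highest egg level of any member, and at 35.0 FPKM in larvae (-2.40). The remaining member with a 4-fold higher egg level, which lists 27 transcripts, was at 138 in eggs and 31.6 FPKM in larvae (-2.09). With larval values raised 1.80-fold, the factor from a trimmed mean of log ratios, only the first of the 3 was still 4-fold higher in eggs (-2.25), and comp24649_c0 was at -1.57. All 3 were still well above the detection limit in larvae. No member detected in eggs was below 1 FPKM at 8 hpf, since the lowest larval level of any member was 3.69 FPKM. Of the 10110 components detected in eggs, 1191 were below 1 FPKM in larvae, but none of these had 10 to 19 transcripts.

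Several of the abundant members were nearly equal in the stages. One with 36 transcripts was at 153 in eggs and 167 FPKM in larvae (0.12). Another with 23 transcripts was at 103 in eggs and 95.5 FPKM in larvae (-0.11). One with 32 transcripts was at 140 in eggs and 201 FPKM in larvae (0.52). These near-equal values hold for the deposited scaling, and any factor applied to larval values moves them.

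The number of transcripts per member was strongly skewed. The median was 29, with quartiles of 23 and 41, and 65 members listed 20 to 24. The 8 members with 100 or more transcripts held 1312 of the 6683 member transcripts (19.6%). The member with most transcripts listed 365 and was at 26.9 in eggs and 87.0 FPKM in larvae (1.66). The next, with 200 transcripts, was at 41.8 in eggs and 64.2 FPKM in larvae (0.61). Both were thus well above the detection limit in each stage and differed by less than 4-fold. The other 6 members of this size passed the 4-fold limit toward larvae, with egg levels from 0 to 1.77 FPKM. They include one with 153 transcripts at 0 in eggs and 23.25 FPKM in larvae, one with 113 transcripts at 0 and 7.20 FPKM, and one with 166 transcripts at 0.610 and 15.0 FPKM. A high number of transcripts was therefore reached at larval levels as low as 7.20 FPKM.

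Within the members the number of transcripts was not closely tied to level. Spearman's rho of transcript number was -0.04 with the larval level, -0.16 with the egg level and 0.15 with the difference, over 169 components of the same libraries. The median larval level was 43.2 FPKM with 20 to 24 transcripts, 31.6 FPKM with 25 to 29, 36.7 FPKM with 30 to 39 and 44.9 FPKM with 40 or more. The share past the 4-fold limit toward larvae was 66.2% (43 of 65) with 20 to 24 transcripts, 71.4% (15 of 21) with 25 to 29, 69.4% (25 of 36) with 30 to 39 and 80.9% (38 of 47) with 40 or more. All 3 members with a 4-fold higher egg level had fewer than 40 transcripts, as did all but 47 of the 169 members. At the limit of the class, the 22 components with 20 or 21 transcripts had a median of 2.885 FPKM in eggs, 35.4 FPKM in larvae and a median difference of 2.73. The 28 components with 18 or 19 transcripts, just outside, had 0.330 FPKM, 27.1 FPKM and 3.74.

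**Figure D4:**
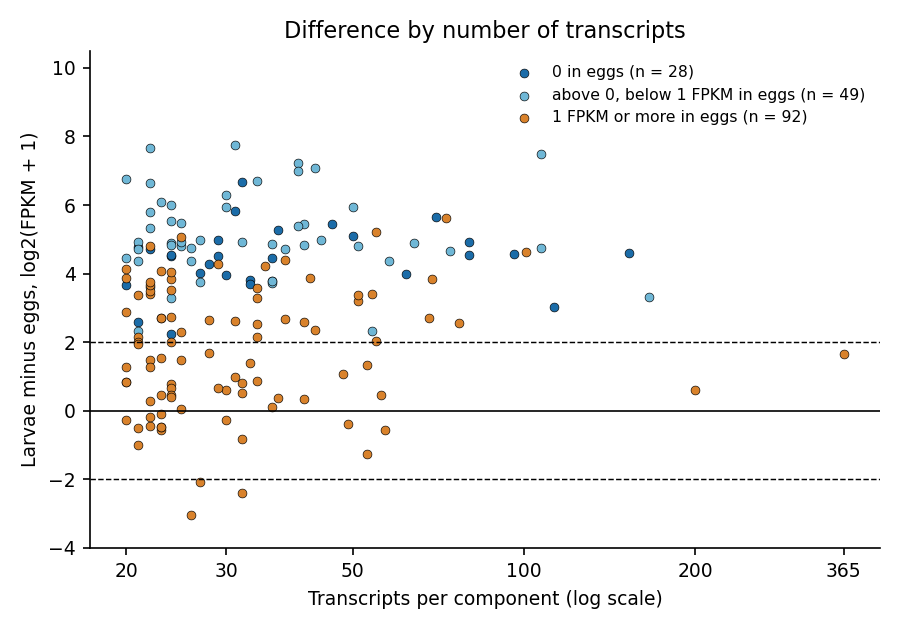
Difference between larvae and eggs on the log2(FPKM + 1) scale against the number of transcripts (log axis) for the 169 members, coloured by egg level; dashed lines mark 4-fold. The points below -2 lie between 26 and 32 transcripts, and the members with 365 and 200 transcripts are at 1.66 and 0.61.

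Component identifiers are made of a component number and a subcomponent, and subcomponents of 1 number may be parts or copies of 1 locus. Of the 169 members, 92 (54.4%) were the only subcomponent of their number. Of all 57962 components, 46289 were the only one of theirs. These make up 89.8% of the 51527 component numbers, a share that counts numbers and not components and so is not comparable with 54.4%. The other 77 members shared their numbers with 148 further subcomponents, up to 7 subcomponents to a number. No component number held more than 1 member. Of the 148, 117 had a single transcript and none had more than 9. The 148 were also at lower levels, with medians of 0 in eggs and 1.02 FPKM in larvae, and 74 were detected in larvae and 15 in eggs. In larvae the member was the highest subcomponent of its number in 74 of the 77 cases and held a median of 93.7% of the summed larval FPKM. In eggs it was the highest in 63 of 77.

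Members that shared a number were themselves more often detected in eggs. Of the 77, 53 (68.8%) reached 1 FPKM in eggs, against 39 of the 92 without another subcomponent (42.4%). Their median levels were 3.54 in eggs and 56.85 FPKM in larvae, and those of the 92 were 0.320 and 31.7 FPKM. The shares past the 4-fold limit toward larvae lay near each other, at 72.7% (56 of 77) and 70.7% (65 of 92). All 3 members higher in eggs belonged to the 92, which make up 54.4% of the members, and 3 are too few to show a pattern. None of these contrasts was tested.

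Where a further subcomponent was detected beside a member higher in larvae, it was mostly higher in larvae too. Of the 104 that shared a number with such a member, 54 were below 1 FPKM in both stages and show no stage pattern. Of the other 50, 35 passed the limit toward larvae, against 50.7% of the 32857 components detected in at least 1 stage. A further 14 differed by less than 4-fold and 1 passed the limit toward eggs. That 1 belongs with comp27788_c4. It has a single transcript and was at 137 in eggs and 8.97 FPKM in larvae (-3.79), the reverse of the member, at 0.765 and 357 FPKM. Another subcomponent of the same number, with 6 transcripts, was at 52.1 in eggs and 37.1 FPKM in larvae (-0.48). Yet another, with 2 transcripts, was listed at 0 in eggs and at 66.2 FPKM in larvae. Of the 44 subcomponents that accompanied a member within 4-fold, 26 were detected, of which 13 passed the limit toward larvae, 2 passed it toward eggs and 11 were also within 4-fold. The share of these 26 past the limit toward larvae was thus near the 50.7% of all detected components. One of the 13 was at 0.655 in eggs and 189 FPKM in larvae, beside a member with 23 transcripts at 86.65 and 255 FPKM. Over the 76 pairs whose further subcomponent was detected in at least 1 stage, Pearson's r between the paired differences was 0.15 and Spearman's rho 0.22. Several pairs share a member, and all come from the same libraries.

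**Figure D5:**
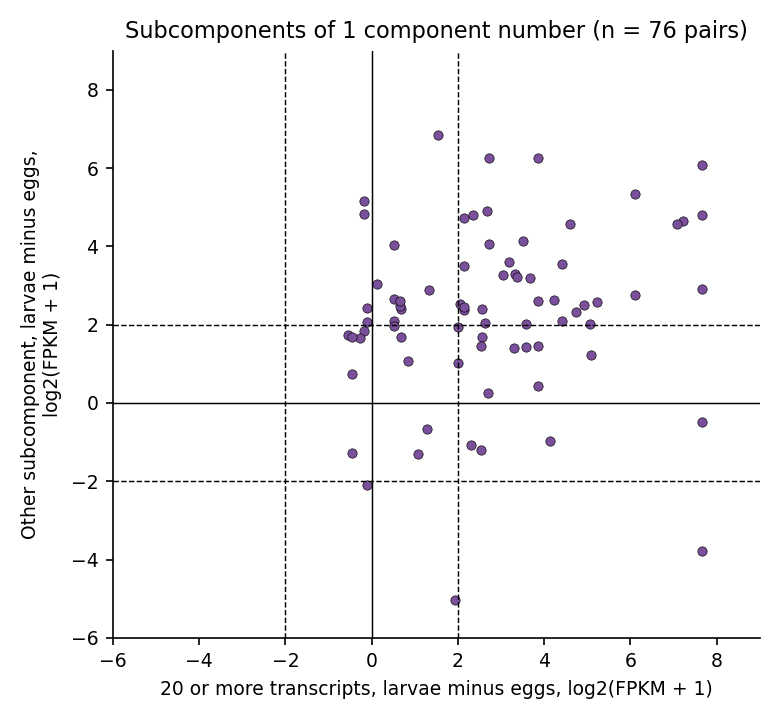
Difference between larvae and eggs on the log2(FPKM + 1) scale for members (horizontal axis) and for the further subcomponents of the same component number (vertical axis), as 76 pairs in which the further subcomponent was detected; dashed lines mark 4-fold. The point at 7.67 and -3.79 is the pair in which the subcomponents differ in opposite directions by more than 4-fold.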

How the data were processed

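The authors deposited 1 table of FPKM values, made with RSEM per the submitters' processing notes, with 1 column per stage. Not given in the sources used here are its version, the assembler, any filter and the build. Despite a file name with log2, the deposited FPKM values are linear, as they include exact zeros and reach 39446. At the thousandths place all values above 0 have 0 or 5 (5 in 46.8% for eggs and 49.4% for larvae), as means of a pair of values would, so the columns were taken as the authors' means. There were 0 unused columns. The members are the rows whose transcript list has 20 or more entries, with no filter on level. The members and classes were chosen with earlier results of these data known. Differences are log2(larvae + 1) minus log2(eggs + 1), where the pseudocount of 1 FPKM makes differences of low components too small. The limits of 1 FPKM and 4-fold are rules of size. By rule, identifiers were printed only for the 2 members with the largest difference in each direction, and other members, singled out after their values were seen, are given by their number of transcripts. Further subcomponents are described in the same way. The trimmed mean used components at 1 FPKM or more in both stages (30% of ratios and 5% of levels trimmed at each end). The code was tested on simulated data. No sequences were given for the components. Values were computed with pandas 2.3.3 and numpy 2.4.6 under Python 3.11.15, correlations with scipy 1.17.1 and plots with matplotlib 3.10.9.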

Additional observations from a re-analysis of the deposited data

How the results depend on the processing

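No paired analysis was possible because the columns carry no replicate numbers, so leaving out a replicate was not possible either. Of 57 alternatives of the 5 summary values, 32 kept the value within 1.5 times for counts or to 2 decimals for the median difference. Counts were compared as numbers and not as shares, so a changed limit of transcripts can move them through the number of components alone. The median difference kept its sign in all 11 of its alternatives (0 changes), from 1.28 to 4.48. With 15 or more transcripts (298 components) and 30 or more (83), detection was 152 and 41 in eggs and 298 and 83 in larvae, 212 and 63 were 4-fold higher in larvae, 1 of the 83 was 4-fold higher in eggs, and the median difference was 3.59 and 3.82. At a limit of 10 FPKM 52 members were detected in eggs, and after quantile normalization 141. Upper-quartile scaling gave 60 members higher in larvae (35.5%, against 8.17% of all components) and 23 in eggs (13.6%, against 11.8%), a pseudocount of 10 FPKM gave 63 higher in larvae, and 1 member was higher in eggs after trimmed mean scaling, 5 at a 2-fold and 1 at an 8-fold limit. The median difference was 4.48, 1.28 and 2.01 after trimmed mean, upper-quartile and quantile scaling, 3.42 after rescaling to 1000000, 3.74 with subcomponents summed, and 4.41 and 1.69 with pseudocounts of 0.1 and 10 FPKM. A trimmed mean over all components above 0 in both stages, chosen after seeing the data, lowered larval values 1.35-fold where the planned one raised them 1.80-fold, and gave 3.26. These scalings also move the other components: the median over components above 0 in either stage was 1.97 as deposited, 2.66, 0.50 and 0.37 after trimmed mean, upper-quartile and quantile scaling, and the members' median lay above it by 1.70, 1.83, 0.78 and 1.64. The 20 alternatives of the 4 named components changed no sign (0). The depth behind values below 1 FPKM in eggs is unknown.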

Other observations

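The rule did not use the component numbers. The members were numbered from 17335 to 28422, while the numbers of the table run to 57798. In this range lay 14157 components, of which 46.2% listed more than 1 transcript, 88.7% reached 1 FPKM in larvae and 44.0% in eggs. Among the 16728 components with lower numbers the shares were 16.5%, 54.8% and 12.1%, with at most 17 transcripts, and among the 27077 with higher numbers they were 0.118%, 36.7% and 6.90%, with at most 9. What the numbers stand for is not given in the sources used here.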
